A study of Mus musculus castaneus and Mus musculus domesticus and Mus musculus with 11 samples.

Results

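The 10 transcription factors Mnx1, Isl1, Isl2, Lhx3, Lhx4, Onecut1, Onecut2, Onecut3, Ebf1 and Ebf2, known for giving motor neurons their identity, were followed in motor neurons of 3 mouse lines. They were chosen by gene name and not by a rule on their values, though with earlier results of these data known. Each name matched 1 Ensembl gene, so the set holds 10 of the 27071 genes in the read matrix, and 10 of 10 passed the filter on low counts that left 14839 genes for testing. The neurons were differentiated in culture from stem cell lines of 3 backgrounds. One was 129S6/SvEv, a laboratory strain called 129 here. Another was CAST/EiJ, a wild-derived strain of the castaneus subspecies called CAST here. The other was a CASTx129 line, labelled 129CAS and called the hybrid here. Each line had 3 libraries of polyadenylated RNA, numbered 1 to 3, and no treatment, transgene or time point is named for any of them. The sources used here do not give the differentiation protocol, the number of stem cell clones behind a line or any sorting of the neurons, so line and clone cannot be told apart. Nor do they tell whether libraries of 1 line came from separate cultures, and the p-values then cover only the spread between these libraries, which may be technical. Bulk RNA was measured, so fewer motor neurons in a culture and less RNA per neuron cannot be told apart.

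In the embryonic spinal cord, motor neurons leave the cell cycle and switch on homeodomain factors that fix their fate. Isl1 and Isl2 are LIM-homeodomain proteins found in nearly every young motor neuron, and Lhx3 and Lhx4, also LIM-homeodomain proteins, are found both in motor neurons and in V2 interneurons. Isl1 and Lhx3 bind DNA together in a complex held by the cofactor Ldb1, and Mnx1 (Hb9), a homeodomain protein of another class, keeps interneuron genes off in motor neurons. Ebf proteins (early B cell factors) and Onecut proteins, which carry a cut domain beside a homeodomain, are known to bind with Isl1 at the regulatory regions of motor neuron genes, Onecut proteins mostly as the neurons mature.

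Family members had to be told apart by the reads that carry their names. The homeobox, the exon sequence that codes for the DNA-binding homeodomain, is the part most alike between LIM-homeodomain paralogues, and it is shown here for both pairs to show how far their most similar stretch differs. The counts themselves come from whole genes, of which the homeobox is a small part. Each sequence is the coding strand of a GENCODE transcript, 5′ to 3′, and capitals mark the bases that differ between the 2 members of a pair.
Isl1: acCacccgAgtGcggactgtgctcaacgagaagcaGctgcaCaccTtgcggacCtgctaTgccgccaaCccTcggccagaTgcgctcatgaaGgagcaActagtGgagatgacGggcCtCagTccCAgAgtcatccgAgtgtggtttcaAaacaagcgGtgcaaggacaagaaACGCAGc
Isl2: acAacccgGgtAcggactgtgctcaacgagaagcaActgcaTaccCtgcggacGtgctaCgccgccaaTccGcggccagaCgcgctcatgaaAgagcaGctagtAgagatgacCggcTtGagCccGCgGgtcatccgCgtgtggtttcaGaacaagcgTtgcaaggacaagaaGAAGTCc
Lhx3: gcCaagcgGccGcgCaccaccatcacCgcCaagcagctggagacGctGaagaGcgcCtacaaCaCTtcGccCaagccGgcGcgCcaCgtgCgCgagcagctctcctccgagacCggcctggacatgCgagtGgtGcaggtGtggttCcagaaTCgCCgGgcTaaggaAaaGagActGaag
Lhx4: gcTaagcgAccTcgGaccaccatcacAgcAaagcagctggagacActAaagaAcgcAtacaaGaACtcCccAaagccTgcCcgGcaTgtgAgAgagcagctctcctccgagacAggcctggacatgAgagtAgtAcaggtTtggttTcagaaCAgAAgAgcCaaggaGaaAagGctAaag
Isl1 and Isl2 differ in 30 of these 180 bases (83.3% identical), and Lhx3 and Lhx4 in 37 (79.4% identical). The homeobox of Isl1 lies in exon 4 at chr13:116303091-116303270 on the minus strand, and that of Isl2 in exon 4 at chr9:55544135-55544314 on the plus strand. In Lhx3 and Lhx4 it is split over exons 4 and 5, with 138 and 42 bases, both genes on the minus strand. The exon 4 piece lies at chr2:26202350-26202487 in Lhx3 and at chr1:155705172-155705309 in Lhx4. Over whole transcripts, the longest identical stretch was 23 bases between Isl1 and Isl2, 20 between Lhx3 and Lhx4 and 17 between Ebf1 and Ebf2. In the Onecut family it was 26 bases between Onecut1 and Onecut2, 38 between Onecut2 and Onecut3 and 50 between Onecut1 and Onecut3. The sources used here do not give the read length, the strand setting or the treatment of reads that match 2 places. Antisense genes that are not in the matrix cover 6.17% of the exon bases of Lhx3 (Gm27196) and 6.12% of those of Ebf2 (Gm10860), and without the strand setting reads of these genes cannot be told apart from those of the factors.

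The members sit at 10 separate places in the mouse genome (GRCm38, the assembly also called mm10). Mnx1 lies on chromosome 5 at chr5:29473034-29478470, Isl1 on 13 at chr13:116298281-116309689 and Isl2 on 9 at chr9:55538672-55546180. Lhx3 lies on chromosome 2 at chr2:26200212-26208289 and Lhx4 on 1 at chr1:155698031-155751684. Onecut1 lies on chromosome 9 at chr9:74861921-74891781, Onecut2 on 18 at chr18:64340020-64400987 and Onecut3 on 10 at chr10:80494835-80517276. Ebf1 lies on chromosome 11 at chr11:44617317-45008091 and Ebf2 on 14 at chr14:67233292-67430918. Their summed exon lengths ran from 2.19 kb in Isl2 and 2.25 kb in Mnx1 to 9.76 kb in Ebf1 and 16.23 kb in Onecut2. Each level compared between genes below is therefore divided by exon length.

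Levels are given as CPM, edgeR's measure of counts relative to library size after TMM scaling. Mnx1, the classical marker of postmitotic motor neurons, was read at low levels in every library. It stood at 0.778, 2.99 and 4.88 CPM in 129 libraries 1 to 3 (14, 49 and 85 counts), at 0.495, 2.51 and 2.03 CPM in the hybrid and at 3.41, 1.80 and 2.58 CPM in CAST. The 129 libraries spanned nearly the whole range, with 129 1 low and 129 3 the highest of the 9, and the ranges of the 3 lines overlapped.

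Isl1, which is needed for motor neurons to form at all, had at least 143 counts in each library. It stood at 13.1, 30.6 and 62.7 CPM in 129, at 17.4, 20.0 and 27.9 CPM in the hybrid and at 62.4, 39.7 and 15.7 CPM in CAST (1091 counts in 129 3). The hybrid libraries lay close together, inside the range of both parental lines. Isl2, which works beside Isl1 in migrating and projecting motor neurons, stood at 0.389, 1.95 and 2.99 CPM in 129, at 1.63, 3.07 and 0.140 CPM in the hybrid and at 1.45, 0.393 and 1.15 CPM in CAST. In hybrid 3 it had 2 counts, in the same library that held 399 counts of Isl1.

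Lhx3, the partner of Isl1 in early and medial column motor neurons, was near the limit of detection in most libraries. It stood at 0.222, 2.13 and 1.38 CPM in 129 (4, 35 and 24 counts), at 0, 0.699 and 0.699 CPM in the hybrid and at 0.619, 0.112 and 0.143 CPM in CAST. Hybrid 1 held 0 counts, which allows a level of up to 0.212 CPM (3 counts), and this limit covers counting error only. Both 129 2 and 129 3 lay above the other 7 libraries, while 129 1 lay among them.

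Lhx4, which can stand in for Lhx3 in motor neurons, was higher in the 129 libraries than in the CAST libraries without overlap. It stood at 1.83, 5.61 and 7.30 CPM in 129, at 1.20, 6.99 and 0.839 CPM in the hybrid and at 0.723, 1.52 and 1.36 CPM in CAST. The hybrid was split, with hybrid 2 at the level of the high 129 libraries and hybrid 1 and hybrid 3 at the level of CAST.

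Onecut2, a factor of developing neurons whose exons are the longest of the set, differed several-fold between libraries of each line. It stood at 20.4, 97.4 and 162 CPM in 129, at 63.1, 22.9 and 33.3 CPM in the hybrid and at 14.4, 114 and 90.5 CPM in CAST. Onecut1, which is expressed in liver and retina as well as in motor neurons, stood at 0.50, 3.35 and 8.39 CPM in 129, at 5.24, 2.93 and 6.29 CPM in the hybrid and at 0.516, 6.51 and 5.16 CPM in CAST. Libraries 129 1 and CAST 1 were the lowest of the 9 for both genes. Onecut3, the third member of the family, stood at 0.167, 2.07 and 6.15 CPM in 129, at 0.637, 1.96 and 0.699 CPM in the hybrid and at 4.13, 4.10 and 1.94 CPM in CAST. For Onecut3 the CAST 1 library was among the highest, unlike for the other Onecut genes.

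Ebf1, a helix-loop-helix zinc finger factor of early neurons and B cells, varied least. It stood at 26.1, 22.3 and 35.9 CPM in 129, at 26.5, 21.7 and 19.4 CPM in the hybrid and at 9.70, 48.8 and 26.6 CPM in CAST, so that the CAST libraries spanned the range of the other lines on both sides. Ebf2, its relative, was the faintest factor per exon length. It stood at 1.61, 1.34 and 0.517 CPM in 129, at 0.424, 2.23 and 0.140 CPM in the hybrid and at 0.103, 0.505 and 0.788 CPM in CAST, with 1 count in CAST 1 and 29 in 129 1.

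**Figure D1:**
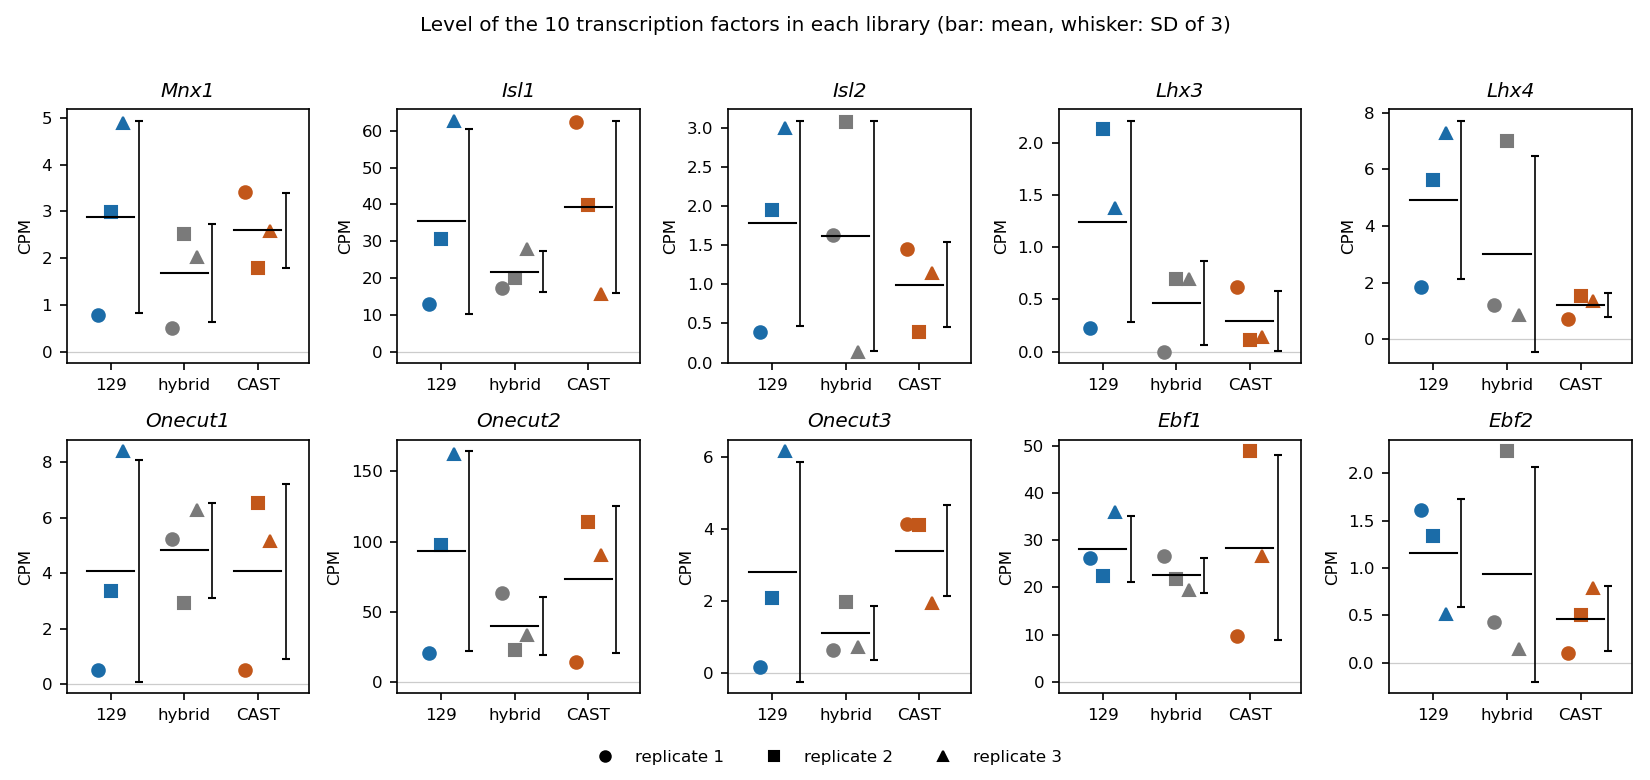
Level of each factor in CPM (vertical axes, linear, 1 scale per gene) in the 9 libraries, with lines on the horizontal axis, symbols for replicate numbers, bars for means and whiskers for the SD of 3 libraries. The spread within a line is wide in most panels, as for Isl1 between 13.1 and 62.7 CPM in 129, and the ranges of 129 and CAST are apart for Lhx4 only.

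Per exon length, the members fell into an order with Isl1 at the top. The means over the 9 libraries were 8.12 CPM per kb for Isl1, 4.23 for Onecut2 and 2.7 for Ebf1. They were 1.06 CPM per kb for Mnx1, 1.05 for Onecut1, 0.666 for Isl2, 0.530 for Lhx4 and 0.508 for Onecut3, and 0.219 for Lhx3 and 0.123 for Ebf2. The place of Onecut1 is uncertain, because 52.8% of its exon bases also belong to Gm20649 on the same strand. The sources used here do not give how reads of shared bases were counted. Over the 9 libraries the ranges of each pair of neighbours in this order overlapped. Neighbours did not overlap within 129 between Ebf1 (2.29 to 3.68 CPM per kb) and Mnx1 (0.346 to 2.17). Within the hybrid they did not overlap between Isl1 (4.4 to 7.04) and Onecut2 (1.41 to 3.89), nor between Ebf1 (1.98 to 2.72) and Onecut1 (0.713 to 1.53). No pair of neighbours in the CAST order was apart in this way.

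Isl1, Onecut2 and Ebf1 were the 3 highest members per kb in 8 of 9 libraries. The exception was CAST 1, where Mnx1 took the place of Onecut2. Isl1 held first place in 8 libraries, and in CAST 3 it came behind Onecut2. Of the summed CPM per kb of the members, Isl1 made up 24.8% to 74.5% (median 38.7%), Onecut2 4.18% to 34.8% (median 26.2%) and Ebf1 4.71% to 31.4% (median 15.8%). The highest share of Isl1 and the lowest shares of Onecut2 and Ebf1 were those of CAST 1.

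**Figure D2:**
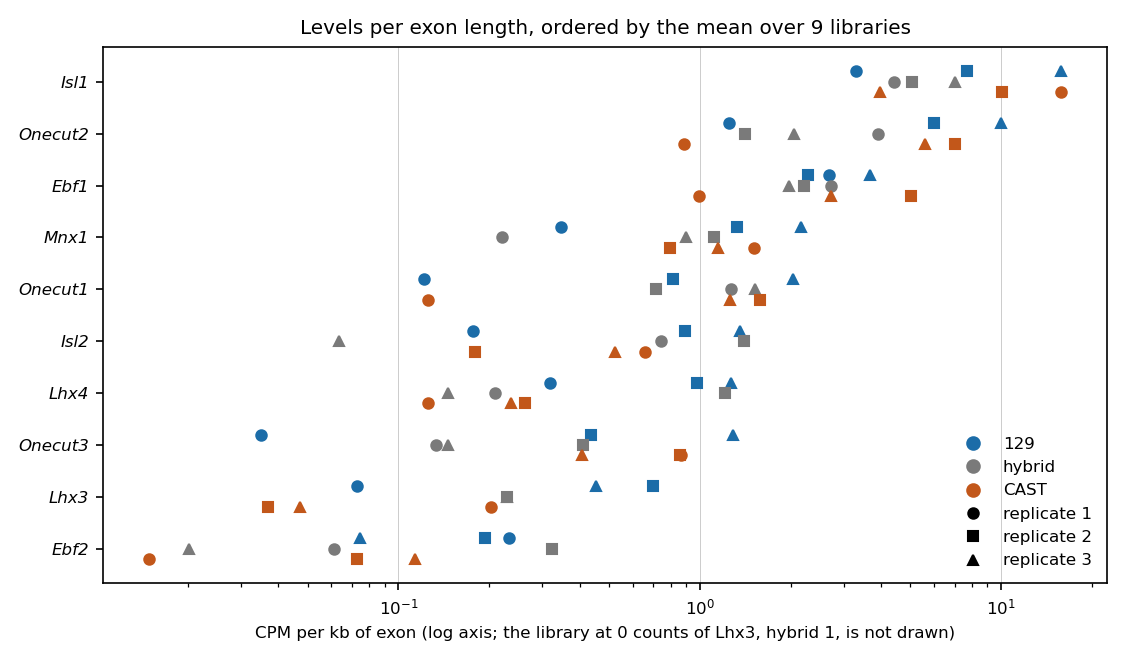
Level per exon length (horizontal log axis, CPM per kb) of the 10 factors, ordered by their mean over the 9 libraries, with a colour for each line and a symbol for each replicate number. Isl1, Onecut2 and Ebf1 lie to the right with means of 8.12, 4.23 and 2.7, and the points of neighbouring genes overlap.

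The first question was whether the hybrid neurons carried these factors at another level than the parental lines. No factor passed the test between hybrid and 129, and most values were negative. Onecut2 had a mean of 39.8 ± 20.9 CPM in the hybrid and 93.4 ± 71.1 CPM in 129 (SD, n = 3), a log2 fold change of −1.23 ± 0.85 (SE). Lhx3 (−1.45 ± 1.14), Onecut3 (−1.40 ± 1.01), Mnx1 (−0.80 ± 0.76) and Isl1 (−0.70 ± 0.62) also had negative log2 fold changes. The values of Lhx4 (−0.75 ± 0.83), Ebf2 (−0.41 ± 0.97), Ebf1 (−0.32 ± 0.52) and Isl2 (−0.18 ± 1.0) were nearer to 0 or less certain, and Onecut1 had the only positive value, 0.25 ± 0.97.

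EdgeR's quasi-likelihood test with Benjamini-Hochberg adjustment over all tested genes called 0 of 10 factors between hybrid and 129, where it called 7.02% of all tested genes. At an unadjusted p under 0.05 it gave 0 factors, against 22.2% of all tested genes. DESeq2 and limma-voom called 0 as well (14.2% and 7.67% of all tested genes), and 0 factors had libraries that did not overlap (37.5%). The adjusted p of the factors lay between 0.393 and 0.917. The values were negative for 9 of 10 factors, but with an offset for exon length those of Ebf1 and Ebf2 were positive (0.32 and 0.09). Their median was −0.72, beside 0.02 over all tested genes. The 95% intervals ran from −2.10 to 0.70 for Isl1, from −1.48 to 0.84 for Ebf1 and from −4.03 to 1.12 for Lhx3, so each held 0 as well as sizeable decreases.

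The values depended on single libraries. Without 129 3 the log2 fold change was −0.01 for Isl1, −0.09 for Onecut3 and −0.57 for Onecut2. For Lhx4 the library that moved the value was hybrid 2. Without it, the log2 fold change of Lhx4 was −2.24 (edgeR adjusted p = 0.147), and without hybrid 2 and CAST 1 together it was −2.24 (edgeR adjusted p = 0.0786).

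Between hybrid and CAST no factor passed the test either. The value farthest from 0 was that of Onecut3, at 1.10 ± 0.744 CPM in the hybrid and 3.39 ± 1.26 CPM in CAST (SD, n = 3), with a log2 fold change of −1.67 ± 1.02. Isl1 (−0.85 ± 0.62), Onecut2 (−0.88 ± 0.85), Mnx1 (−0.64 ± 0.76) and Ebf1 (−0.34 ± 0.52) were negative too. Lhx4 (1.26 ± 0.86), Ebf2 (0.84 ± 1.02), Lhx3 (0.72 ± 1.26), Isl2 (0.67 ± 1.03) and Onecut1 (0.24 ± 0.98) were positive. EdgeR called 0 of 10 factors and 6% of all tested genes, with 0 factors and 15.8% of all genes at an unadjusted p under 0.05, and 0 factors and 19.2% of all genes without overlap of the libraries. DESeq2 and limma-voom called 0 of 10 (10.8% and 6.73% of all tested genes). The adjusted p of the factors lay between 0.528 and 0.953, and their median log2 fold change was −0.05 beside −0.08 over all tested genes. Without hybrid 2 the value of Lhx4 was −0.21 in place of 1.26.

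The parental lines were compared next, to ask whether their neurons differ in these factors. No factor passed the test after adjustment, and Isl1 and Ebf1 had nearly equal means. In CAST Isl1 averaged 39.3 ± 23.3 CPM, against 35.4 ± 25.2 CPM in 129 (SD, n = 3), a log2 fold change of 0.15 ± 0.62 with a 95% interval of −1.24 to 1.54. Ebf1 was at 28.4 ± 19.6 CPM and 28.1 ± 6.98 CPM (0.02 ± 0.51, interval −1.14 to 1.17). Onecut2 was at 73.0 ± 52.2 CPM and 93.4 ± 71.1 CPM (−0.35 ± 0.84, interval −2.24 to 1.53). Mnx1 had a log2 fold change of −0.16 ± 0.74, Onecut1 of 0.01 ± 0.97 and Onecut3 of 0.28 ± 0.95.

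The LIM-homeodomain pair Lhx3 and Lhx4 had the largest values between the parental lines. In CAST Lhx4 averaged 1.20 ± 0.421 CPM, against 4.91 ± 2.80 CPM in 129 (SD, n = 3), a log2 fold change of −2.01 ± 0.86 with a 95% interval of −3.95 to −0.07. Its edgeR p was 0.0438 before and 0.330 after adjustment over all tested genes, and each of its 3 CAST libraries was below each 129 library. Lhx3 averaged 0.292 ± 0.284 CPM in CAST, against 1.24 ± 0.963 CPM in 129 (SD, n = 3). Its log2 fold change was −2.17 ± 1.19 (edgeR adjusted p = 0.411), and its lines overlapped because 129 1 had 4 counts. Ebf2 (−1.25 ± 0.99) and Isl2 (−0.85 ± 1.01) were negative with intervals that held 0.

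EdgeR called 0 of 10 factors between CAST and 129, where it called 0.917% of all tested genes. Lhx4 was the 1 factor of 10 at an unadjusted p under 0.05, against 14.6% of all tested genes, and the 1 of 10 whose libraries did not overlap, against 28.6%. Both shares are near or below those of all genes. DESeq2 and limma-voom called 0 factors (6.34% and 1.77% of all tested genes), and DESeq2 gave Lhx4 an adjusted p of 0.141. Over the omissions of 1 library, the log2 fold change of Lhx4 lay between −2.41 (without 129 1) and −1.61 (without 129 3). The values of Isl1 and Onecut3 depended on the library 129 3, without which they were 0.84 and 1.59.

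**Figure D3:**
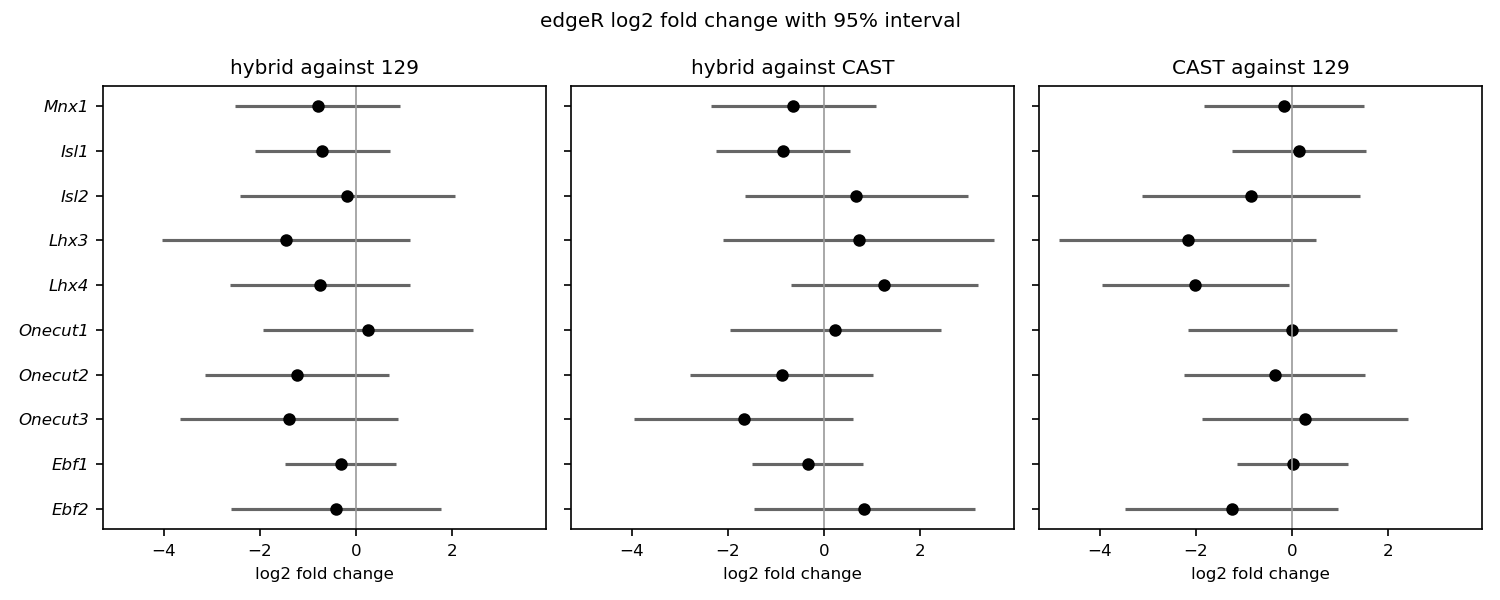
Log2 fold change of each factor by edgeR (points) with its 95% interval (lines) for the 3 pairs of lines, on a common horizontal axis. The intervals reach past 0 for each factor in each panel except Lhx4 in CAST against 129, whose interval ends at −0.07.

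The hybrid was also set against the midparent, a log2 average that weights 129 and CAST by 0.5 each. This comparison shares its hybrid libraries with the comparisons above and is no separate evidence. EdgeR called 0 of 10 factors and 7.34% of all tested genes, with 0 factors and 18.4% of all genes at an unadjusted p under 0.05 (DESeq2 and limma-voom called 0 of 10, and 12.1% and 7.9% of all genes). The values were −1.53 ± 0.92 for Onecut3, −1.05 ± 0.76 for Onecut2, −0.78 ± 0.56 for Isl1 and −0.72 ± 0.68 for Mnx1, and lay between −0.37 and 0.26 for the other 6. The adjusted p lay between 0.418 and 0.914.

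The factors varied widely within a line. The SD of log2 CPM within a line had a median of 1.22 over the factors, beside 0.65 over all tested genes. The SD of the 3 line means had a median of 0.46, beside 0.51. Neither pair of medians was matched for the level of the genes. A mean of 3 libraries varies less than a single library even with no difference between lines, so the 2 SDs are not set against each other. Ebf1 was the least variable, with 0.72 within lines and 0.16 between line means, and Onecut1 the most, with 1.56 and 0.45. EdgeR's biological coefficient of variation, the part of the relative spread that counting error does not give, ran from 46.2% for Ebf1 to 87.7% for Lhx3, beside a median of 46.9% over all tested genes. It was above the trend for genes of the same level in 9 of 10 factors, Ebf1 being the exception. The share of all tested genes above the trend was not counted.

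Several factors were high or low in the same libraries. Of the 10 factors, 6 were highest in 129 3 and 2 in hybrid 2, while 4 were lowest in CAST 1 and 3 in 129 1. Within 129, library 3 was the highest in 8 factors and library 1 the lowest in 8. Ebf2 was the exception on both sides, since it was highest in 129 1 and lowest in 129 3 among the 129 libraries. CAST 1 had high Isl1, Mnx1 and Onecut3 and low Onecut1, Onecut2, Ebf1, Ebf2 and Lhx4.

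**Figure D4:**
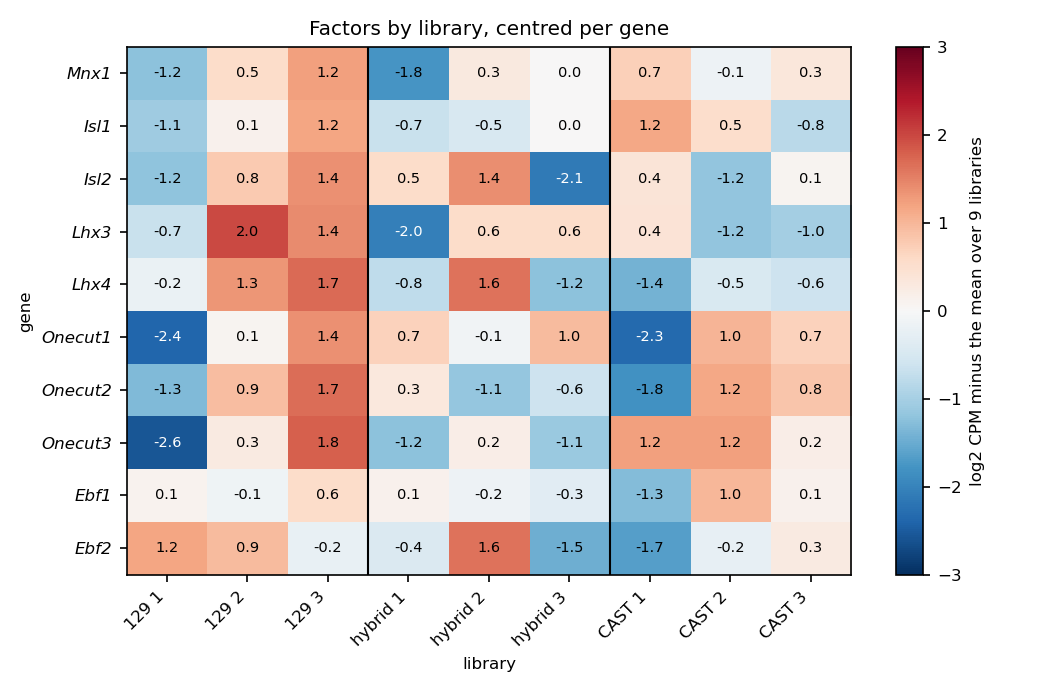
Log2 CPM of each factor (rows) in each library (columns) minus the mean of that factor over the 9 libraries, with the value in each cell and colour from blue (lower) to red (higher). The 129 1 column is below 0 in 8 of 10 rows and the 129 3 column above 0 in 9 of 10, and CAST 1 joins 3 values of 0.7 to 1.2 with 5 values of −1.3 or lower.

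Measures of the cultures moved with these libraries, and their part in the values of the factors was not tested. The summed level of the 10 factors was 65.0, 170 and 292 CPM in 129 libraries 1 to 3, 117, 84.9 and 91.4 CPM in the hybrid and 97.3, 218 and 146 CPM in CAST. The summed level of 10 mesenchyme and fibroblast markers (Col1a1, Col1a2, Col3a1 and others) was 18200, 13150 and 3708 CPM in 129, 19190, 3543 and 919 CPM in the hybrid and 465, 3863 and 4328 CPM in CAST. Of these 10 markers, 10 were tested and edgeR called 0 in any comparison, while their fitted values lay mostly on one side of 0 in comparisons with CAST. In CAST against 129, 9 of 10 log2 fold changes were negative, with a median of −2.52 beside 0.06 over all tested genes. There 4 were lower at an unadjusted p under 0.05 (14.6% of all tested genes in either direction), and DESeq2 called 4 (6.34%). In hybrid against CAST, 9 of 10 were positive, with a median of 1.53 beside −0.08, 4 were higher at an unadjusted p under 0.05 (15.8%), and DESeq2 called 3 (10.8%). Against the midparent 8 of 10 were positive (median 0.81), and DESeq2 called 3 (12.1% of all tested genes). In hybrid against 129 4 were positive and 6 negative (median −0.49), and DESeq2 called 0 (14.2%). In 129 the library order by mesenchyme markers was the reverse of that by the factors. In CAST it was not by these summed CPM, since CAST 1 had the least of both. The sums were not divided by exon length. Onecut2, with the longest exons, stood at 14.4, 114 and 90.5 CPM in CAST 1 to 3. Isl1, the highest factor per kb, stood at 62.4, 39.7 and 15.7 CPM there, which is the reverse of the order by mesenchyme markers. In the hybrid, hybrid 1 had the most of both sums. Onecut2 stood at 63.1, 22.9 and 33.3 CPM in hybrid 1 to 3. Isl1 stood at 17.4, 20.0 and 27.9 CPM in these libraries, which is also the reverse of the order by mesenchyme markers. The summed level of 10 pan-neuronal genes ran from 2417 to 6871 CPM in 129, from 2561 to 5796 CPM in the hybrid and from 3751 CPM to 8286 CPM in CAST, where CAST 1 was highest. The libraries also differed in how the level went with exon length. Per doubling of exon length, the level of a gene relative to its mean changed by −0.60 log2 units in hybrid 2, −0.49 in CAST 1 and −0.25 in hybrid 3, and by 0.07 to 0.31 in the other 6 libraries (14830 genes).

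Ratios of related factors within a library do not depend on the scaling between libraries. On the log2 scale per kb, Isl1 was above Isl2 in 9 of 9 libraries, by 1.82 to 6.47 (median 3.53), and Ebf1 above Ebf2 in 9 of 9, by 2.74 to 6.30 (median 5.36). Isl1 was above its partner Lhx3 in 9 of 9, by 3.44 to 8.57. Onecut2 was above Onecut1 and above Onecut3 in 9 of 9, although CAST 1 had Onecut3 within 0.02 of it. Lhx3 was below Lhx4 in 7 of 9 libraries, with hybrid 3 (0.66) and CAST 1 (0.71) the exceptions, and a ratio with so few counts of Lhx3 is loosely known.

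The balance of Onecut1 to Onecut2 was the ratio that set the hybrid apart from both parental lines. It was −1.60, −0.95 and −0.42 in the hybrid, −3.29, −2.87 and −2.29 in 129 and −2.68, −2.15 and −2.14 in CAST. Each hybrid library was above each parental library. The means were −0.99 ± 0.59 in the hybrid, −2.82 ± 0.50 in 129 and −2.32 ± 0.31 in CAST (SD, n = 3), so the hybrid was higher by 1.82 than 129 and by 1.33 than CAST. The exact two-sided permutation p was 0.1 in both comparisons, the smallest that 3 against 3 libraries can give, and 0.6 after Benjamini-Hochberg adjustment over the 18 tests of 6 ratios in 3 pairs of lines. Leaving out 1 library kept the differences between 1.54 and 2.13 against 129 and between 1.05 and 1.64 against CAST. The exons of Onecut2 add up to 16.23 kb and those of Onecut1 to 4.11 kb, and 2 of the 3 hybrid libraries had the negative length slopes given above. In the order of the ratios above, the slopes were 0.07, −0.60 and −0.25 in the hybrid, 0.25, 0.28 and 0.31 in 129 and −0.49, 0.17 and 0.27 in CAST. The part of exon length in this ratio was not tested. Of the exon bases of Onecut1, 52.8% also belong to the noncoding gene Gm20649 on the same strand, which had 67 counts in all.

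The ratio of Isl1 to Lhx3 parted the parental lines in these libraries. It was 5.33, 3.44 and 5.10 in 129 and 6.16, 7.77 and 6.08 in CAST, with means of 4.62 ± 1.03 and 6.67 ± 0.95 (SD, n = 3). The difference of 2.04 had an exact two-sided permutation p of 0.1, the smallest possible, and 0.6 after adjustment. The hybrid spanned both lines, with 8.57, 4.33 and 4.87. In the remaining comparisons of ratios the libraries of the lines overlapped.

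**Figure D5:**
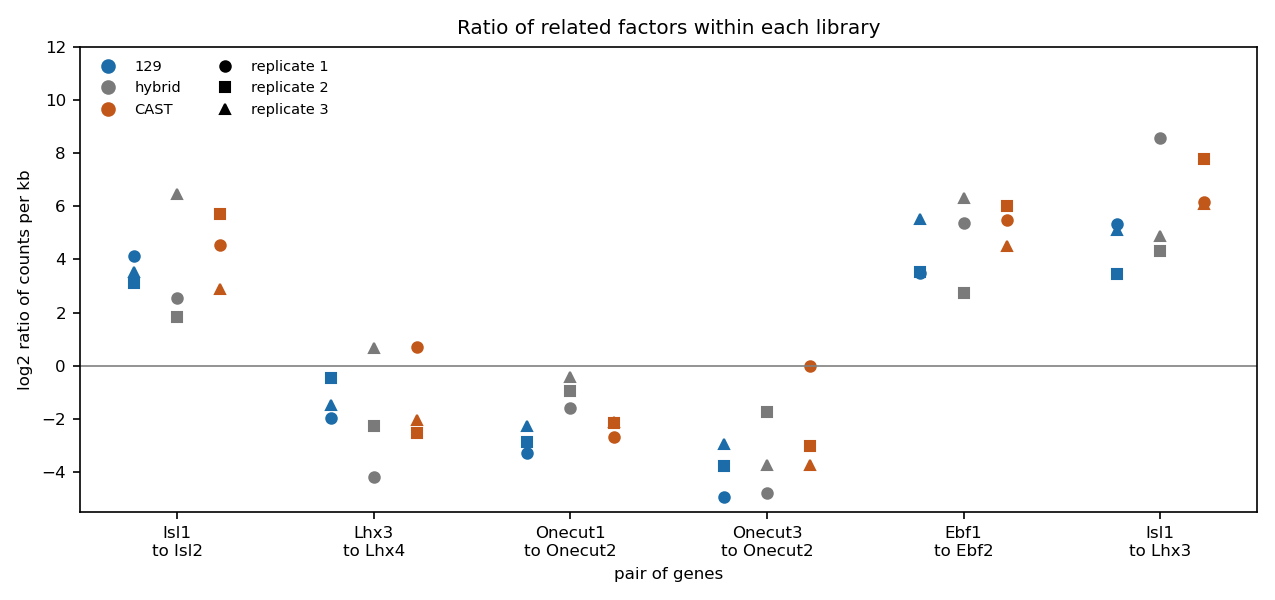
Log2 ratio of 2 factors per kb of exon within each library (vertical axis) for 6 pairs of genes (horizontal axis), with 0.5 added to each count, a colour for each line and a symbol for each replicate number. For Onecut1 to Onecut2 the 3 hybrid points, from −1.60 to −0.42, lie above the 6 parental points, from −3.29 to −2.14.

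The cofactors through which LIM-homeodomain proteins work were measured as a list, of which 6 of 7 were in the matrix and tested. EdgeR called 1 of 6 lower in the hybrid than in 129, than in CAST and than the midparent, and 0 between the parental lines, where it called 7.02%, 6%, 7.34% and 0.917% of all tested genes. DESeq2 called 1, 3, 3 and 0 of the 6, beside 14.2%, 10.8%, 12.1% and 6.34% of all tested genes. At an unadjusted p under 0.05, 2 cofactors were higher and 1 lower in each of the 3 comparisons with the hybrid. Between the parental lines 0 differed. The shares of all tested genes were 22.2%, 15.8%, 18.4% and 14.6%. The 2 higher were Ldb2 and Lmo4, with log2 fold changes of 1.46 ± 0.40 and 1.08 ± 0.34 in hybrid against CAST (edgeR adjusted p = 0.0682 and 0.123). The called gene was Lmo2, a LIM-only protein that binds Ldb1 and is best known from blood and endothelial cells. It had 68, 44 and 85 counts in 129 and 49, 60 and 31 in CAST, at 2.22 to 5.06 CPM over both lines, and 0 counts in each of the 3 hybrid libraries. With a floor of 3 counts over the hybrid group, Lmo2 was at least 45.1-fold lower than in 129 and at least 40.1-fold lower than in CAST (edgeR adjusted p = 0.0021 and 0.00226), and it was called under each alternative run. Ldb1, the bridge between 2 LIM-homeodomain proteins, was at 171 ± 12.1 CPM in the hybrid, 109 ± 16.5 CPM in 129 and 158 ± 25.8 CPM in CAST (SD, n = 3). Its log2 fold change of hybrid against 129 was 0.66 ± 0.31 (edgeR adjusted p = 0.247). Rlim, a ubiquitin ligase that degrades LIM cofactors, was at 225 ± 33.5 CPM in 129, 104 ± 119 CPM in the hybrid and 105 ± 81.3 CPM in CAST and was not called in any comparison.

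Relatives of the factors were present beside them. Of 8 listed, 7 were in the matrix and tested, and Lmx1a was not. Lmx1b, a LIM-homeodomain factor of dorsal interneurons and serotonergic neurons, was called higher in the hybrid than in 129 (log2 fold change 2.38 ± 0.56, edgeR adjusted p = 0.033). It had 26, 15 and 64 counts in 129 and 174, 66 and 143 in the hybrid, without overlap (37.5% of all tested genes did not overlap there). That call was lost without 129 1, 129 2, hybrid 1, hybrid 2, hybrid 3 or CAST 2, with edgeR adjusted p between 0.0526 and 0.134. Lmx1b was also called higher in CAST than in 129 (3.14 ± 0.57, edgeR adjusted p = 0.0412), with 99, 384 and 302 counts in CAST. That call was lost without 129 1, 129 2, hybrid 1, hybrid 2, hybrid 3, CAST 2 or CAST 3, with edgeR adjusted p between 0.0504 and 0.178, and with only the 2 compared lines in the fit (0.0827). By edgeR it was the 1 gene called of 7 in hybrid against 129 (7.02% of all tested genes) and the 1 of 7 in CAST against 129 (0.917%). DESeq2 called 1 and 2 of the 7 in these comparisons, where it called 14.2% and 6.34% of all tested genes. At an unadjusted edgeR p under 0.05, 2 were higher in hybrid against 129 (22.2% of all tested genes in either direction). In CAST against 129, 2 were higher and 1 lower (14.6%). In hybrid against CAST and against the midparent edgeR called 0 of 7 (0 also by DESeq2, 0 at an unadjusted p under 0.05). Ebf3 and Ebf4, the other members of the Ebf family, had values of opposite sign that did not pass the test. Ebf3 was at 43.6 ± 5.18 CPM in 129, 22.4 ± 6.05 CPM in the hybrid and 19.1 ± 11.6 CPM in CAST, and Ebf4 at 11.5 ± 3.81, 30.1 ± 11.8 and 44.3 ± 28.2 CPM (SD, n = 3). In CAST against 129 their log2 fold changes were −1.19 ± 0.52 and 1.94 ± 0.53 (edgeR adjusted p = 0.333 and 0.136). The libraries of both lines did not overlap for either gene, with Ebf3 lower and Ebf4 higher. Of all tested genes, 28.6% did not overlap in this comparison.

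Factors that act before the motor neuron factors, in progenitors, were a list of 10, of which 8 were tested. Against 129, edgeR called 1 higher and 1 lower in the hybrid (7.02% of all tested genes), and against the midparent 1 higher (7.34%). DESeq2 called 2 in each of these comparisons (14.2% and 12.1% of all tested genes). At an unadjusted p under 0.05, 1 was higher and 1 lower against 129, and 1 higher and 2 lower against the midparent (22.2% and 18.4%). EdgeR called 0 in hybrid against CAST and in CAST against 129 (6% and 0.917% of all tested genes). There DESeq2 called 4 and 2 (10.8% and 6.34%), and 5 and 3 genes had an unadjusted p under 0.05 (15.8% and 14.6%). Nkx6-2, a homeodomain factor of ventral progenitors, had 84, 43 and 89 counts in 129 and 243, 186 and 588 in the hybrid (4.13 ± 1.33 CPM in 129 and 28.1 ± 12.1 CPM in the hybrid, SD, n = 3). Its log2 fold change was 2.76 ± 0.43 (edgeR adjusted p = 0.00462), and it was called under each alternative run, as it was against the midparent (2.01 ± 0.34, edgeR adjusted p = 0.00443). Neurod1, a basic helix-loop-helix factor of differentiating neurons, was called lower, at 3.37 ± 2.20 CPM in the hybrid and 22.3 ± 10.7 CPM in 129 (SD, n = 3, log2 fold change −2.70 ± 0.66, edgeR adjusted p = 0.0387). This call was lost without 129 2, 129 3, hybrid 1, hybrid 2, hybrid 3 or CAST 2, with edgeR adjusted p between 0.0503 and 0.142, and without CAST 1 and hybrid 2 together (0.0585). Olig2, the factor that defines motor neuron progenitors, had 1 to 76 counts in the 129 and hybrid libraries and 0, 2 and 12 in CAST. Its log2 fold change was −2.60 ± 1.20 in CAST against 129 (edgeR adjusted p = 0.359).

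Motor neuron effector genes, which these factors switch on, were a list of 10 with 10 tested and 0 called by edgeR in each of the 4 comparisons. By edgeR 0.917% to 7.34% of all tested genes were called in these comparisons. Before adjustment 1 was lower in hybrid against 129 and 1 higher in CAST against 129 (edgeR p under 0.05, 22.2% and 14.6% of all tested genes). DESeq2 called 1 in hybrid against 129 (14.2% of all tested genes) and 0 in the others. Chat, which makes acetylcholine, stood at 5.84, 16.6 and 28.4 CPM in 129, at 8.28, 11 and 6.36 CPM in the hybrid and at 11.9, 8.93 and 5.52 CPM in CAST. Its highest library was 129 3, as for 6 of the factors. Prph and Ret had the highest mean CPM of this list, and Prph, an intermediate filament of peripheral axons, had a log2 fold change of 1.26 ± 0.85 in CAST against 129 (edgeR adjusted p = 0.483). Ret was at 325 ± 184 CPM in 129, 162 ± 32.9 CPM in the hybrid and 213 ± 44.1 CPM in CAST (SD, n = 3). Most log2 fold changes of the list were negative, 8 of 10 in hybrid against 129, 9 in hybrid against CAST and 7 in CAST against 129. Their medians were −0.94, −0.28 and −0.64, beside 0.02, −0.08 and 0.06 over all tested genes. Of 10 pan-neuronal genes edgeR called 0 in the 4 comparisons, and DESeq2 also called 0 (6.34% to 14.2% of all tested genes). At an unadjusted p under 0.05 there were 0 as well (14.6% to 22.2%). The list holds Tubb3, the neuronal tubulin, with 622 ± 317 CPM in 129, 1138 ± 637 CPM in the hybrid and 1613 ± 1422 CPM in CAST (SD, n = 3). Tubb3 does not stand for the list, in which most log2 fold changes against 129 were negative. In hybrid against 129, 7 of 10 were negative, with a median of −0.62 beside 0.02 over all tested genes. In CAST against 129, 6 of 10 were negative, with a median of −0.15 beside 0.06.

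The factors are also used by other cell types, whose markers were read in the same libraries. V2 interneurons are among the cells where Lhx3 and Lhx4 are found, and of 8 V2 markers 5 were tested. The summed level of the 8 was 47.2 to 75.4 CPM in 129, 29.9 to 56.4 CPM in the hybrid and 37.1 to 68.2 CPM in CAST. Gata2 reached 32.3 CPM in 129 3, while Sox14 had at most 10 counts in any library. The sum is therefore no measure of cells that make Lhx3 or Lhx4. Shox2, a factor of V2 interneurons, was the 1 gene of 5 that edgeR called (7.02% of all tested genes), lower in the hybrid than in 129 (log2 fold change −2.32 ± 0.58, edgeR adjusted p = 0.0428). The call was lost without 129 2, 129 3, hybrid 1, hybrid 2, hybrid 3, CAST 2 or CAST 3, with edgeR adjusted p between 0.0506 and 0.177, and with only the 2 compared lines in the fit (0.0505). EdgeR called 0 of 5 in the other comparisons. DESeq2 called 1 of 5 in hybrid against 129, in CAST against 129 and against the midparent, and 0 in hybrid against CAST. Its shares of all tested genes were 14.2%, 6.34%, 12.1% and 10.8%. Before adjustment, edgeR's p was under 0.05 for 1, 2, 1 and 1 of the 5, in the same order of comparisons, beside 22.2%, 14.6%, 18.4% and 15.8% of all tested genes.

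Some markers of further cell types that make these factors were at or near 0, and others of the same lists were not. For B lymphocytes, which make Ebf1, the summed level of 4 markers was at most 3.91 CPM. For pancreas and liver, which make Isl1 and Onecut1, Ins1 had 0 counts in all 9 libraries and Alb 0 to 6, while the summed level of 9 markers was 23.7 to 99.7 CPM, of which Foxa1, which the floor plate also expresses, reached 93.4 CPM in hybrid 3 and Sox17 12.6 CPM in 129 3. For heart, which makes Isl1 early, Nkx2-5 had 0 to 8 counts and the summed level of 7 markers was 4.87 to 35.6 CPM, with Hand2 at 26.5 CPM in 129 1. Dorsal interneuron and sensory markers, 7 in the matrix, summed to 6.67 to 18.8 CPM in 129, 8.91 to 20.0 CPM in the hybrid and 12.8 to 40.3 CPM in CAST, where Avil reached 21.7 CPM in CAST 1. EdgeR called 0 genes of these 4 lists in any comparison (0.917% to 7.34% of all tested genes). At most 2 genes of a list had an unadjusted p under 0.05 (14.6% to 22.2%), and DESeq2 called at most 1 (6.34% to 14.2%). Of 7 radial glia and astrocyte markers tested, Gfap was the 1 that edgeR called against the midparent (7.34% of all tested genes). It was higher in the hybrid (3.90 ± 0.86, edgeR adjusted p = 0.0211). The call was lost without 129 3, hybrid 2 or CAST 3 (edgeR adjusted p of 0.0517, 0.0974 and 0.0535) and without CAST 1 and hybrid 2 together (0.0687). The list did not move together, with 4 of 7 log2 fold changes against the midparent positive and 3 negative (median 0.03, beside −0.02 over all tested genes). DESeq2 called 2 of the 7 there (12.1% of all tested genes).

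The genes most like each factor were those with the smallest root mean square difference of centred log2 CPM over the 9 libraries, among tested genes with a mean of at least 5 CPM. This measure grows with a factor's own spread, so distances are not ranked between factors. The root mean square of the factor itself ran from 0.60 for Ebf1 and 0.78 for Isl1 to 1.33 for Onecut1. Isl1 was closest to Dusp9 (0.20) and Cacng5 (0.28), and Ebf1 to Ptpre (0.23) and Atrnl1 (0.29). Mnx1 was closest to Ajap1 (0.37) and Kbtbd12 (0.42), Lhx3 to Gkn2 (0.46) and Aqp8 (0.58), and Lhx4 to Nckap5 (0.53) and Epha6 (0.56). Onecut2 was closest to Ryr2 (0.49) and Pcdh11x (0.50), and Onecut1 to Frmpd4 and Trhr (0.69 each). Onecut3 was closest to Plekhd1 (0.65) and Agtr2 (0.66), Isl2 to Gem (0.69) and Stra6 (0.79), and Ebf2 to Grk5 (0.48) and Aldh1a3 (0.57). Each of 11659 or 11660 genes was compared over 9 libraries that share their depth and makeup, so these are descriptions of likeness only. Among the factors themselves, on the same measure, Mnx1 and Isl1 had the smallest distance (0.66), followed by Mnx1 with Lhx3, Mnx1 with Onecut3 and Onecut1 with Onecut2 (0.81 each), and Onecut3 and Ebf2 the largest (1.88).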

How the data were processed

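Libraries of polyadenylated RNA, primed with random hexamers per the labels' protocols, were aligned with STAR to mm10, per the submitters' processing notes. The sources used here do not give the counting tool, its annotation or its strand setting. As deposited, the matrix holds whole read counts per Ensembl gene, with no normalization by the authors that the values show. It covers 9 of the 11 labelled samples, and the CAST samples numbered 7 and 8 were not analysed here. Total counts ran from 7763077 to 18167577, and 41 of 27071 genes had no symbol in the GENCODE annotation of GRCm38, which also gave positions and the exon lengths behind CPM per kb.

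Genes passing filterByExpr (minimum count 10, minimum total 15, minimum proportion 0.7) were fitted by edgeR 4.0.16 in R 4.3.3, with TMM scaling, the robust quasi-likelihood model, all 3 lines in 1 fit and no covariates. Two-sided p-values were adjusted over the tested genes (Benjamini-Hochberg), and a gene was called under an adjusted p of 0.05. Log2 CPM used a prior count of 2, and within-library ratios added 0.5 to each count and were tested by exact permutation. The script was tested on simulated data. DESeq2 1.42.0 and limma 3.58.1 (voom), other scaling, no filter, an exon length offset, a replicate block, the compared lines alone, and omission of each library or of CAST 1 with hybrid 2 were alternatives. The homeobox was located by its conserved recognition helix motif in the translated transcripts.

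The members and lists were chosen with earlier results of these data known. Named were all members, Chat, Olig2 and Tubb3 (some further genes of the rule are not reported here), and from each counted list up to 3 genes called in each direction or, with none called, up to 2 of the highest mean CPM. The alternatives for called genes of the lists, and Ebf3 with Ebf4 side by side, were chosen after their values were seen, as were Ldb2, Lmo4 and the marker genes named at or near 0 or for their higher levels.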

Additional observations from a re-analysis of the deposited data

How the results depend on the processing

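The count of 0 factors called held in each of the 4 comparisons under each alternative run, and the smallest adjusted p of any factor was 0.0786 (Lhx4, hybrid against 129, without CAST 1 and hybrid 2), 0.264 (Ebf1, hybrid against CAST, without CAST 1), 0.141 (Lhx4, CAST against 129, DESeq2) and 0.169 (Onecut3, midparent, without 129 1). The counts over all genes moved more. DESeq2 called 2100, 1597, 939 and 1790 genes in hybrid against 129, hybrid against CAST, CAST against 129 and hybrid against midparent, where edgeR called 1041, 891, 136 and 1089. In CAST against 129, limma-voom called 263, the exon length offset 297, and the fit without CAST 1 and hybrid 2 230. Omitting 1 library gave 522 (without 129 2) to 1717 (without CAST 1) genes in hybrid against 129, 643 to 923 in hybrid against CAST, 26 to 157 in CAST against 129 and 884 to 1850 (without CAST 1) in the midparent comparison. In CAST against 129 the low counts were 51, 26, 32, 31 and 61 without 129 1, 129 2, 129 3, CAST 2 and CAST 3, and in hybrid against 129 they were 673 and 564 without 129 1 and 129 3. The cause was not tested.

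Whether the replicate numbers pair the libraries was not settled. Of same-number pairs, 2 of 9 correlated above 0.1 (−0.72 to 0.49), and 3 of 9 libraries correlated best with their own number. These correlations were of departures from the line mean, which also hold the differences in markers and length slope given above. They therefore cannot show that a shared batch is absent. With the number as a replicate block, edgeR called 561, 526 and 6 genes in hybrid against 129, hybrid against CAST and CAST against 129, and 0 factors. The block turned Mnx1 to 0.24 and Ebf1 to −0.12 in CAST against 129 and Ebf2 to −0.17 in the midparent comparison. Lmx1b against 129 lost its call with the block in both the hybrid (adjusted p = 0.0652) and CAST (adjusted p = 0.126), as did Gfap against the midparent (adjusted p = 0.0878). It changed no other call of a named gene.

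Signs turned only among values that did not pass the test. In CAST against 129 the log2 fold change became −0.03 for Onecut1 and −0.03 for Ebf1 with DESeq2 size factors in edgeR, −0.04 and −0.03 by DESeq2, 0.13 for Mnx1 and −0.21 for Ebf1 by limma-voom, 0 for Onecut1 with no filter, 0 for Onecut1 and 0.17 for Onecut2 with the length offset, and −0.38 for Isl1 and 0.11 for Onecut2 without CAST 1 and hybrid 2. Without those 2 libraries Lhx4 and Ebf2 became −0.45 and −1.13 in hybrid against CAST, and Isl2, Lhx4 and Ebf2 became −0.37, −1.34 and −1.57 against the midparent. Against the midparent, limma-voom gave −0.25, −0.31 and −0.32 for Isl2, Lhx4 and Ebf2, and the length offset −0.33 for Isl2 and 0.14 for Ebf1. In hybrid against 129 the offset gave 0.32 for Ebf1 and 0.09 for Ebf2.

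Omitting 1 library at a time turned signs within these ranges of log2 fold changes. In hybrid against 129 they were −0.98 to 0.41 for Isl2, −0.29 to 1.32 for Onecut1 and −2.0 to 0.12 for Ebf2. In hybrid against CAST they were −0.09 to 1.23 for Isl2, −0.21 to 1.70 for Lhx4, −0.26 to 0.74 for Onecut1, −0.74 to 0.30 for Ebf1 and −0.72 to 1.38 for Ebf2. In CAST against 129 they were −0.61 to 0.45 for Mnx1, −0.36 to 0.84 for Isl1, −0.52 to 1.09 for Onecut1, −0.83 to 0.31 for Onecut2, −0.29 to 1.59 for Onecut3 and −0.63 to 0.41 for Ebf1. Against the midparent they were −0.54 to 0.80 for Isl2, −0.97 to 0.25 for Lhx3, −1.23 to 0.70 for Lhx4, −0.03 to 0.78 for Onecut1 and −1.36 to 0.75 for Ebf2. Differences of ratios turned sign within −1.40 to 0.92 and −2.19 to 0.13 (Isl1 to Isl2, hybrid minus 129 and minus CAST), −1.94 to 0.49 and −1.95 to 0.48 (Lhx3 to Lhx4, likewise) and −0.99 to 0.63 (Lhx3 to Lhx4, CAST minus 129). They did so within −0.38 to 1.15 (Onecut3 to Onecut2, hybrid minus 129), −0.14 to 1.64 and −1.29 to 0.49 (Ebf1 to Ebf2, hybrid minus 129 and minus CAST) and −0.02 to 2.10 and −2.07 to 0.05 (Isl1 to Lhx3, likewise). Adding 1 count in place of 0.5 moved Isl1 to Isl2, hybrid minus 129, from 0.03 to −0.04. The 2 ratio differences of Onecut1 to Onecut2 for the hybrid and that of Isl1 to Lhx3 between the parental lines kept their sign.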
